A study of Mus musculus with 12 samples.

Results

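YAP and its paralogue TAZ are transcriptional coactivators, encoded by Yap1 and Wwtr1, that bind no DNA themselves. They act through the TEAD transcription factors, encoded by Tead1 to Tead4, and switch on genes of growth, adhesion and matrix, among them Cyr61 and Ctgf. Upstream, in the Hippo cascade of the kinases MST and LATS, LATS phosphorylates YAP and TAZ, which are then held in the cytoplasm or degraded. The mRNA counts thus give the supply of the components and the level of the targets but not the activity of the proteins. The 10 genes described here were chosen with earlier results of these data known, and were taken by name from the count files of the series. They were Yap1, Wwtr1, Tead1, Tead2, Tead3, Tead4, Cyr61, Ctgf, Lats2 and Amotl2, and all 10 were present among the 18278 genes of the files and passed the filter on low counts, as 18176 genes did. Cyr61 and Ctgf are named Ccn1 and Ccn2 in newer annotations.

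The series profiled mRNA in tumourspheres, floating clusters grown from single cells in ultra-low attachment plates, for 12 libraries in 4 groups of 3. LM1 and LM9 are lung metastasis-derived lines of a mouse mammary tumour line that carries the PIK3CA H1047R transgene and was mutagenised with the piggyBac transposon, and both were isolated from NOD/SCID hosts. The LM1KO and LM9KO groups, labelled as Nfib knockouts of those lines, are oligoclonal pools of CRISPR-Cas9 clones made with a guide against the transcription factor gene Nfib, so that a pool stands for the clones it holds. All cells grew for 6 days from 10000 cells per mL in medium with B27 and 20 ng/mL each of EGF and basic FGF, and the LM1 and LM9 libraries without the knockout are called parental here. The labels do not say whether replicates came from separate cultures, so p-values measure the spread between these libraries, which may be technical.

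Some labels and library profiles stood apart. Nfib mRNA was not lower in the knockout-labelled libraries. Its counts relative to library size (CPM), with libraries scaled by the trimmed mean of M-values (TMM), were 195.6, 216.7 and 240.8 in LM1 and 238.5, 237.7 and 228.3 in the LM1KO-labelled libraries. In LM9 they were 210.3, 119.6 and 133.5, against 227.1, 247.0 and 245.9 in the LM9KO-labelled libraries. The log2 difference, knockout-labelled minus parental, was 0.11 ± 0.16 SE in LM1 (adjusted p = 0.53, limma-voom). In LM9 it was 0.68 ± 0.17 (adjusted p = 0.0026, limma-voom), and 0.93 ± 0.07 without LM9 replicate 1, so Nfib was called higher there. A frameshift can leave the mRNA level in place, and the cause of the higher LM9KO-labelled level was not tested. The edited bases were not examined here, so the counts do not check the knockout and "knockout" below is the label. Across genes, which are not independent replicates, the log2 CPM of LM9 replicate 1 gave r = 0.991 to 0.992 with the 3 LM1 libraries but only r = 0.963 to 0.965 with LM9 replicates 2 and 3, whereas the LM1 libraries gave r = 0.9907 to 0.9914 among themselves. The profile of LM9 replicate 1 thus goes against its label, every LM9 value from all 3 libraries takes that label as given, and the LM9 differences of the members are given with and without it. The 6 knockout-labelled libraries correlated with each other at r = 0.993 to 0.994, across both lines, and with the parental libraries at r = 0.685 to 0.701. Libraries held 29249075 to 37162594 counts, so that 3 counts, taken as the limit of detection, were 0.0730 to 0.121 CPM.

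Markers of cell type also differed between parental and knockout-labelled libraries. Of 8 luminal markers 7 were in the files, and their summed level was 772 to 826 CPM in LM1, 824 to 1483 in LM9, 26.7 to 27.6 where labelled LM1KO and 27.2 to 28.99 where labelled LM9KO. Cdh1, the epithelial cadherin, had at most 1 count in any knockout-labelled library, and 6 of the 7 were lower there. Esr1, the estrogen receptor gene, went the other way, at 8.89 to 10.5 CPM in LM1 and 3.26 to 9.38 in LM9 against 25.7 to 26.5 and 26.2 to 27.9 in the knockout-labelled libraries, where it made up nearly all of the sum. All 6 fibroblast markers were in the files and summed to 293 to 311 CPM in LM1, 174 to 288 in LM9, 1347 to 1381 in LM1KO-labelled libraries and 1289 to 1346 in LM9KO-labelled libraries. Collagen gene Col1a1 made up most of the higher sum, at 5.96 to 6.31 CPM in LM1 against 936 to 979 where labelled LM1KO, whereas Dcn ran the other way, at 85.8 to 94.8 against 11.2 to 12.1 CPM. The 6 mesenchymal markers summed to 14373 to 15686 CPM in LM1, 14057 to 16405 in LM9, 5830 to 5852 in LM1KO-labelled libraries and 5679 to 5790 in LM9KO-labelled libraries. In LM1 the lower sum came from Fn1 alone, at 11315 to 12436 CPM in LM1 and 192 to 197 where labelled LM1KO. Among the other 5, Vim (2940 to 3226 against 5304 to 5330 CPM), Twist1 (27.5 to 29.1 against 104.9 to 108.4 CPM), Zeb1 and Cdh2 were higher in LM1KO-labelled than in LM1 libraries, and Zeb2 overlapped. In LM9 Fn1 was also lower where labelled knockout, at 8409 to 11634 against 186 to 197 CPM. Vim overlapped there (3179 to 5543 against 5158 to 5270 CPM). Zeb2 was higher in LM9KO-labelled libraries (52.1 to 83.3 against 88.3 to 88.9 CPM), as were Twist1, Zeb1 and Cdh2. Zeb1 had at most 4 counts in the parental libraries and 132 to 137 CPM in the knockout-labelled ones, and Cdh2 was at 0.681 CPM or less throughout. Of 6 endothelial markers 3 were in the files, summing to 0.202 to 1.33 CPM in the parental libraries and 350 to 359 in the knockout-labelled ones, where Kdr and Cdh5 made up nearly all of the sum. Of the 6 basal markers only 3 were in the files, summing to 15.8 to 19.1 CPM in LM1, 0.443 to 18.0 in LM9 and 6.78 to 7.63 in the knockout-labelled libraries, with Trp63 lower in LM1KO-labelled than in LM1 libraries and Krt14 higher. The top of that LM9 range was replicate 1, and the other LM9 libraries, at 0.443 and 0.472 CPM, lay below the knockout-labelled ones. Of the 6 leukocyte markers only Cd14 and Csf1r were in the files, and their sum was 50.2 to 54.5 CPM in LM1, 37.03 to 52.9 in LM9 and 30.2 to 31.9 in the knockout-labelled libraries, where Csf1r, with at most 1 parental count, was at 11.4 to 13.2 CPM. Of 5 lung epithelial markers only Ager was in the files, at 1.496 to 4.86 CPM in the parental and 0.0528 to 0.201 CPM in the knockout-labelled libraries. The part of these markers in the results below was not tested, and in bulk samples fewer cells of a type and less RNA per cell cannot be told apart.

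RefSeq promoters (GRCm38.p6) were found for 7 of the 10 members, with 11 start sites, and none was matched for Tead1, Tead4 and Ctgf. The 250 bases before each start were searched on both strands for the TEAD motif CATTCC, the AP-1 motif TGANTCA and the NFI half-site TTGGCA, and no matches of different motifs overlapped in the members. A TEAD motif was present at 7 of the 11 starts, in Cyr61, Amotl2, Yap1, Wwtr1 and Tead3, whereas 12.6% of all 32851 promoters hold it. The Wwtr1 starts are alternatives that share a site, and the Tead3 starts with the motif hold different sites. The NFI half-site was present at 1 start, that of Cyr61 (12.3% of all promoters), and the AP-1 motif at 0 (6.75% of all). A match is a description of the letters and not a bound site. The windows of the matricellular target gene Cyr61 and of both coactivator genes are shown as examples with the motif outside annotated exons, as is also the case at 1 start of Tead3, together with the short stretch around the motif of Amotl2. Capitals mark the TEAD motif, read on the gene's strand as CATTCC or as GGAATG when it lies on the other strand, and in Cyr61 also the NFI half-site.
Cyr61 (chr3:145649986-145650235, minus strand): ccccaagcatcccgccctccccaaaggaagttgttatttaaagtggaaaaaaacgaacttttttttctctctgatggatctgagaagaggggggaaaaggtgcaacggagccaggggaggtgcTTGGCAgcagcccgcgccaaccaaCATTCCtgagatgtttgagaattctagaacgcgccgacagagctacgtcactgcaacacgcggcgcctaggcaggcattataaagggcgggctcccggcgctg
Yap1 (chr9:8004597-8004846, minus strand): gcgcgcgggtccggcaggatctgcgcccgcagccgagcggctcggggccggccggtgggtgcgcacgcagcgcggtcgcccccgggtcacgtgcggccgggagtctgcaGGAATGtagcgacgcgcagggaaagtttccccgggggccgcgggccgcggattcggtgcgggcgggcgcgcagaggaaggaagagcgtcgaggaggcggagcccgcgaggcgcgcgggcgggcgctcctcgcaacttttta
Wwtr1 (chr3:57575911-57576160, minus strand): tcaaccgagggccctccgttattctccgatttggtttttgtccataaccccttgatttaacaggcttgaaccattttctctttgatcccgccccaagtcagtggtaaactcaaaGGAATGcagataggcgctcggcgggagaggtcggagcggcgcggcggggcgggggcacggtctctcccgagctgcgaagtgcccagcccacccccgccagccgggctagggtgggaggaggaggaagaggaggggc
Amotl2 (chr9:102717729-102717754, plus strand): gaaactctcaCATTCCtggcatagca
The motif began 103 bases before the start of Cyr61, 141 before that of Yap1, 136 before that of Wwtr1 and 65 before that of Amotl2, where GENCODE M21 annotates an exon of another Amotl2 transcript. No TEAD motif was found in the windows of Tead2 and Lats2.

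The first question was whether the pathway's genes differed between knockout-labelled and parental tumourspheres within each line. In LM1, 9 of the 10 members were lower in the knockout-labelled libraries and 0 were higher, by limma-voom with Benjamini-Hochberg adjustment over all genes and a threshold of 0.05, and the remaining gene was Tead4. The background was high, since 38.1% of all genes were called lower and 43.1% higher in that comparison. In LM9, 8 members were lower and 0 higher, against 38.0% of all genes lower and 44.3% higher. Without LM9 replicate 1, 8 members were lower and Ctgf was higher, against 41.2% and 47.7% of all genes. Without scaling factors 6 members were lower and 1, Tead4, higher in LM9, against 30.2% of all genes lower and 52.3% higher. The median log2 difference of the members was -1.19 in LM1, -0.97 in LM9 and -0.82 in LM9 without replicate 1, where the median of all genes was 0.08, 0.13 and 0.16. Since the members were chosen with earlier results of these data known, these counts and medians describe the list and do not test it. Without the TMM factors the medians of all genes were 0.31 and 0.49, and the differences given below are on the TMM scale. An exact two-sided permutation test of 3 against 3 libraries cannot give a p below 0.1.

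**Figure D1:**
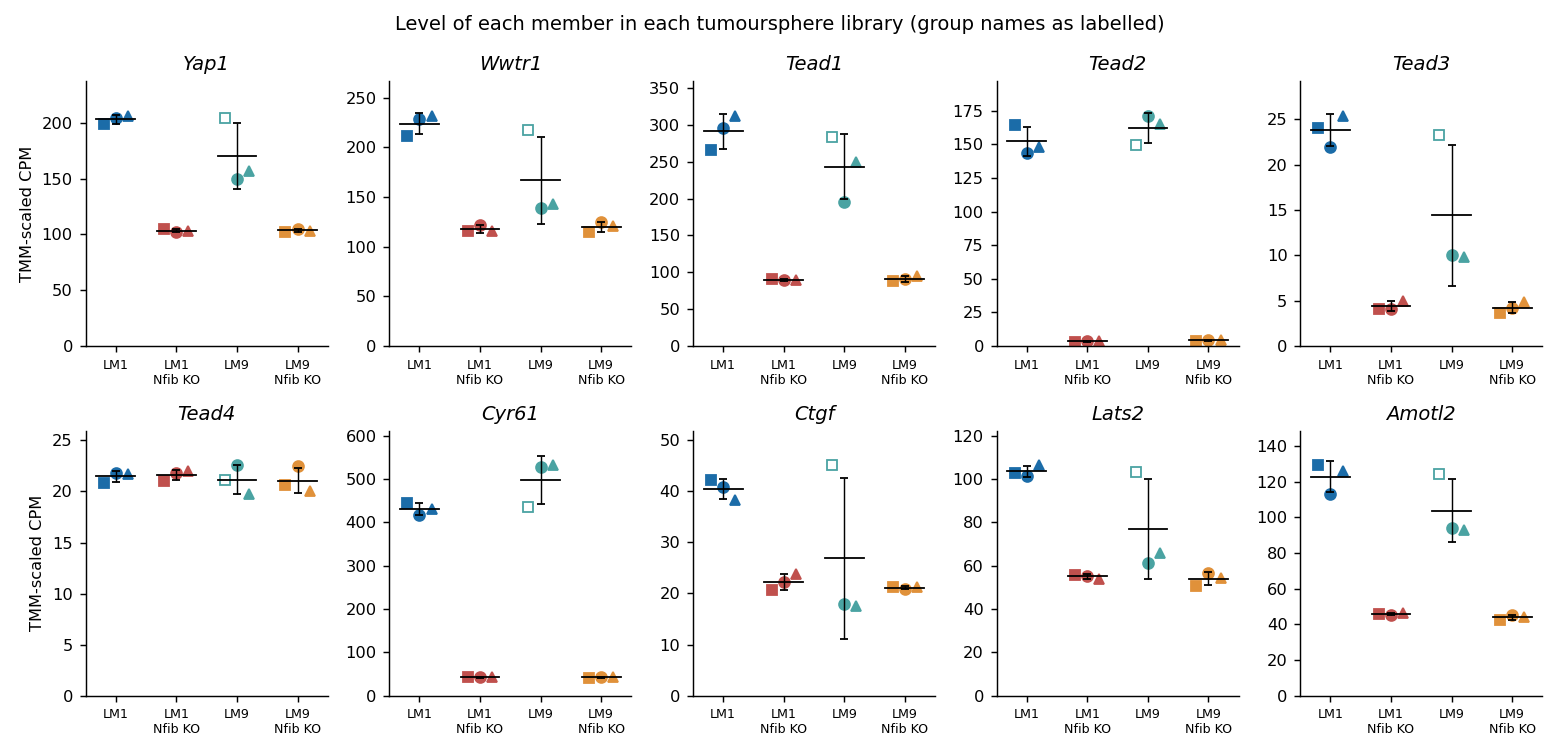
TMM-scaled CPM (vertical axis, linear from 0) of the 10 members in each of the 12 libraries. Points are libraries (square, circle and triangle for replicates 1, 2 and 3, with LM9 replicate 1 open), bars the mean and SD of 3 libraries. The knockout-labelled libraries of both lines lie together in every panel, and LM9 replicate 1 lies within the LM1 range for 9 of the 10 genes and just above it for Ctgf.

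Both coactivator genes were lower in the knockout-labelled libraries, Yap1 by 1.96-fold in LM1 and 1.65-fold in LM9. Yap1 was at 198.8, 204.4 and 206.4 CPM in LM1 and at 105.0, 102.3 and 103.0 in the LM1KO-labelled libraries (log2 difference -0.97 ± 0.10 SE, adjusted p = 1.7e-06, limma-voom). In LM9 it was at 204.4, 149.9 and 157.1 CPM, against 102.2, 104.9 and 103.4 (log2 difference -0.71 ± 0.10, adjusted p = 2.9e-05, limma-voom), and the log2 difference was -0.57 ± 0.04 without replicate 1. The groups did not overlap in either line, and the first LM9 library was the one at the LM1 level. Wwtr1 was at 212.0, 228.2 and 232.1 CPM in LM1 and at 115.9, 122.4 and 115.5 in the LM1KO-labelled libraries (log2 difference -0.93 ± 0.14, adjusted p = 6.1e-05, limma-voom). Its LM9 levels were 217.5, 139.2 and 143.4 CPM, against 114.6, 124.7 and 120.4 (log2 difference -0.45 ± 0.14, adjusted p = 0.010, limma-voom). Wwtr1 groups did not overlap either, but LM9 replicates 2 and 3 stood only 1.18-fold above the knockout-labelled mean, and without replicate 1 the log2 difference was -0.23 ± 0.05 (adjusted p = 0.00024, limma-voom). The LM9 call of Wwtr1 was lost without scaling factors (-0.09, adjusted p = 0.63) and when only the LM9 groups were fitted (-0.45, adjusted p = 0.059), whereas Yap1 kept its call in both, though at -0.35 without scaling factors (adjusted p = 0.028).

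The TEAD genes split into 3 that were lower and 1 that was level. Tead2 showed the largest difference among the members, 41.9-fold in LM1 and 38.5-fold in LM9. It was at 164.2, 143.8 and 148.3 CPM in LM1 and at 3.27, 3.84 and 3.78 in the LM1KO-labelled libraries (log2 difference -5.39 ± 0.12, adjusted p = 1.2e-11, limma-voom). The LM9 libraries gave 149.8, 171.3 and 165.3 CPM, against 3.81, 4.55 and 4.26 (log2 difference -5.26 ± 0.11, adjusted p = 1.0e-11, limma-voom, and -5.32 ± 0.10 without replicate 1). Tead2 was thus high in all 6 parental libraries, LM9 replicate 1 included, and was still well above the detection limit in the others, with 130 to 187 counts each. Only 2.71% of all genes in LM1 and 2.82% in LM9 had a lower log2 difference. Its exons overlap those of Cd37 on the opposite strand over 13 bp, and Cd37 had at most 24 counts in any library.

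Tead1, the factor with the most reads among the TEAD genes, was at 265.5, 295.8 and 312.7 CPM in LM1 and at 91.1, 89.3 and 89.0 in the LM1KO-labelled libraries (log2 difference -1.69 ± 0.12, adjusted p = 7.2e-08, limma-voom). LM9 levels of Tead1 were 284.2, 196.0 and 249.6 CPM, against 87.9, 90.5 and 95.6 (log2 difference -1.40 ± 0.12, adjusted p = 4.0e-07, limma-voom, and -1.27 ± 0.08 without replicate 1). Tead3, the least abundant member per length in the parental lines, was at 24.1, 21.9 and 25.4 CPM in LM1 and at 4.13, 4.05 and 4.99 in the LM1KO-labelled libraries (log2 difference -2.44 ± 0.29, adjusted p = 1.0e-05, limma-voom). LM9 levels of Tead3 were 23.3, 10.1 and 9.80 CPM, against 3.60, 4.23 and 4.83 (log2 difference -1.68 ± 0.31, adjusted p = 0.00037, limma-voom), and without LM9 replicate 1 the log2 difference was -1.24 ± 0.13. Neither gene's groups overlapped.

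Tead4 was the member that stayed level. In LM1 its levels were 20.8, 21.9 and 21.8 CPM, and in the LM1KO-labelled libraries 21.1, 21.8 and 22.0. The LM9 libraries gave 21.1, 22.6 and 19.7 CPM and the LM9KO-labelled ones 20.6, 22.5 and 20.1. All 4 groups overlapped, and the log2 differences were 0.01 ± 0.07 in LM1 and -0.01 ± 0.07 in LM9 (adjusted p = 0.91 and 0.95, limma-voom), with 0.0011 ± 0.07 in LM9 without replicate 1. This level state holds on the TMM scale. Without scaling factors Tead4 was higher in the knockout-labelled libraries by 0.23 in LM1 and 0.35 in LM9 (adjusted p = 0.025 and 0.0028, limma-voom), close to the shift of the median gene.

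**Figure D2:**
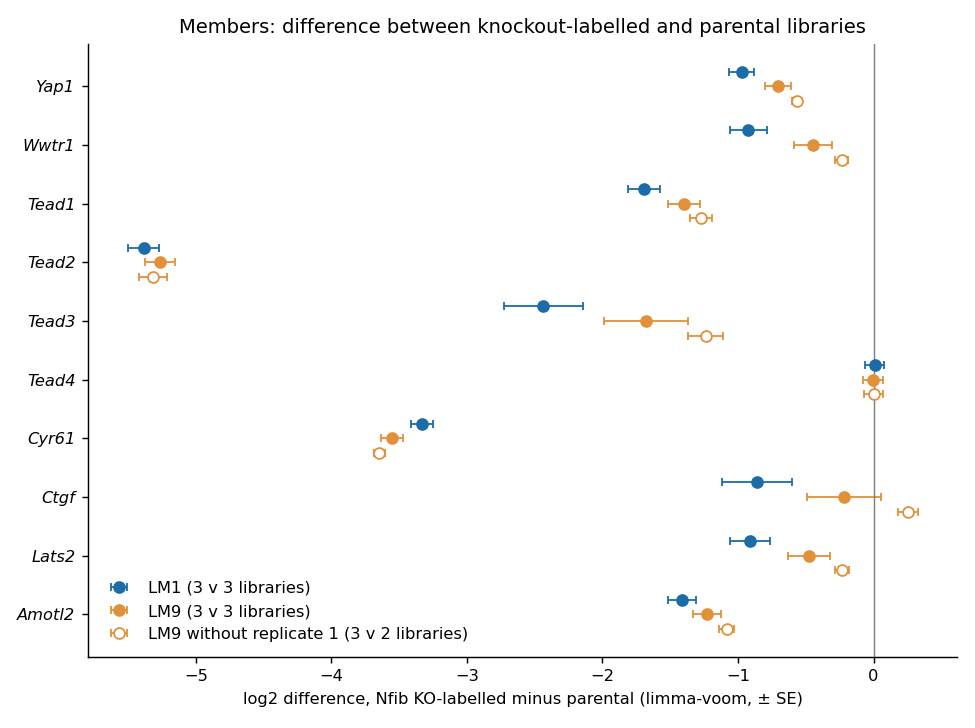
Log2 difference (knockout-labelled minus parental, horizontal axis) of each member by limma-voom, with its SE, in LM1, in LM9 and in LM9 without replicate 1 (open points). Tead2 lies near -5.4 and -5.3, Tead4 at 0 on this TMM scale, and Ctgf moves from -0.22 to 0.25 in LM9 when replicate 1 is left out.

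Per length of exon, the supply of TEAD mRNA changed in amount and in make-up. Summed over the 4 genes it was 62.8 ± 1.39 CPM per kb (SD, n = 3) in LM1, 59.8 ± 1.79 in LM9, 14.0 ± 0.174 in LM1KO-labelled libraries and 14.1 ± 0.491 in LM9KO-labelled libraries. Tead2 held 50.6% ± 3.15 (SD, n = 3) of the sum in LM1 and 56.7% ± 5.50 in LM9, and 5.40% ± 0.415 and 6.23% ± 0.340 in the knockout-labelled libraries of the same lines. Tead4 held 9.52% ± 0.393 in LM1 and 9.84% ± 0.866 in LM9, against 42.8% ± 0.497 and 41.5% ± 2.07. Tead1 held 34.2% ± 2.85 and 29.9% ± 4.61 in the parental lines and 47.2% ± 1.16 and 47.8% ± 1.74 in the knockout-labelled ones. In LM9 without replicate 1 the sum was 58.9 CPM per kb, with 59.7% from Tead2, 27.8% from Tead1 and 9.98% from Tead4. Shares of a sum within a library do not depend on the scaling between libraries. The ranges of Tead1, Tead2 and Tead4 shares did not overlap between parental and knockout-labelled libraries of either line. Yap1 and Wwtr1, by contrast, kept nearly the same proportion, with Yap1 at 31.9% ± 0.630 of their sum in LM1 and 31.2% ± 0.918 in LM1KO-labelled libraries, where the ranges overlapped. In LM9 the Yap1 share was 34.8% ± 1.90 against 30.8% ± 0.636 in LM9KO-labelled libraries, without overlap, and LM9 replicate 1 was the lowest of its group at 32.7%.

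**Figure D3:**
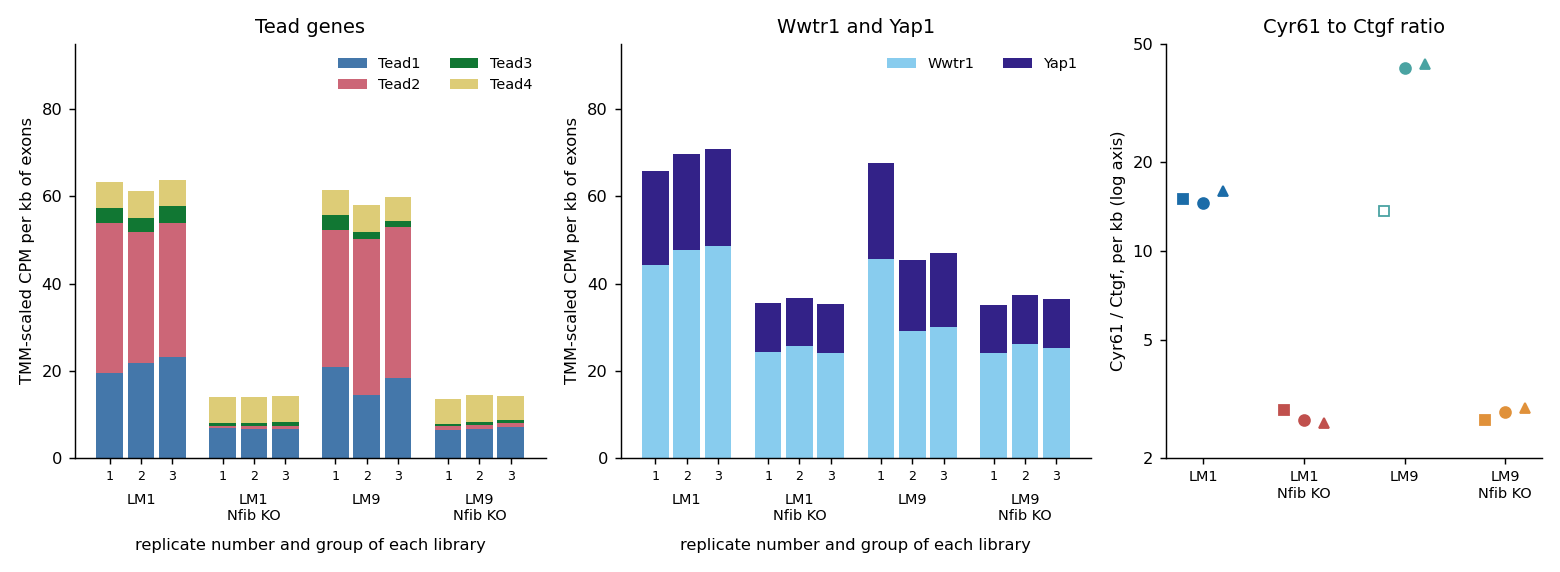
Left and middle, stacked TMM-scaled CPM per kb of exons for the 4 Tead genes and for Wwtr1 and Yap1 in each library. Right, the ratio of Cyr61 to Ctgf per kb on a log axis, 1 point per library (LM9 replicate 1 open). The Tead2 block nearly disappears in the knockout-labelled libraries while the Tead4 block keeps its height, and the ratio falls from 13.7 or more to 2.95 or less.

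The 2 secreted CCN targets behaved differently from each other. Cyr61, a matricellular protein gene and early target of YAP-TEAD, was at 444.8, 417.8 and 430.6 CPM in LM1 and at 42.2, 42.2 and 44.1 in the LM1KO-labelled libraries (log2 difference -3.33 ± 0.08, adjusted p = 2.3e-11, limma-voom). The levels in LM9 were 434.3, 528.0 and 531.6 CPM, against 40.4, 42.2 and 44.1 (log2 difference -3.55 ± 0.08, adjusted p = 1.6e-11, limma-voom, and -3.65 ± 0.04 without replicate 1). These are 10.1-fold and 11.8-fold differences, with no overlap, and Cyr61 was the most abundant member per length in the parental lines at 213.5 CPM per kb in LM1 and 246.6 in LM9. Ctgf, which encodes a related matricellular protein, was at 42.2, 40.8 and 38.2 CPM in LM1 and at 20.7, 22.2 and 23.8 in the LM1KO-labelled libraries (log2 difference -0.86 ± 0.26, adjusted p = 0.0090, limma-voom). That call was lost without scaling factors (-0.64, adjusted p = 0.065).

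In LM9, Ctgf was at 45.0, 18.0 and 17.6 CPM, against 21.3, 20.9 and 21.2 in the knockout-labelled libraries. The first LM9 library was above all of these and the other 2 were below all of them. The log2 difference was -0.22 ± 0.28 (adjusted p = 0.47, limma-voom) with replicate 1 and 0.25 ± 0.07 (adjusted p = 0.0041, limma-voom) without it, so the direction rests on that library. The counts ranged from 446 to 1335 over the 12 libraries. The ratio of Cyr61 to Ctgf per kb was 15.1 ± 0.736 (SD, n = 3) in LM1 and 2.74 ± 0.137 in LM1KO-labelled libraries. In LM9 it was 13.7 in replicate 1 and 41.6 and 42.9 in replicates 2 and 3, and 2.83 ± 0.133 in LM9KO-labelled libraries. Ctgf shares 665 bp of exon with Gm15270 on the opposite strand, which had 0 to 3 counts in parental and 15 to 21 in knockout-labelled libraries.

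Lats2 and Amotl2 are targets that also restrain the pathway, Lats2 as a kinase of YAP and TAZ and Amotl2 as an angiomotin that binds YAP. Amotl2 was at 129.2, 113.2 and 126.2 CPM in LM1 and at 46.0, 45.4 and 46.5 in the LM1KO-labelled libraries (log2 difference -1.42 ± 0.10, adjusted p = 1.5e-07, limma-voom). Amotl2 levels in LM9 were 124.4, 93.8 and 93.1 CPM, against 42.4, 45.4 and 44.2 (log2 difference -1.23 ± 0.11, adjusted p = 5.6e-07, limma-voom, and -1.08 ± 0.05 without replicate 1). Lats2 was at 102.8, 101.2 and 106.3 CPM in LM1 and at 55.7, 55.4 and 53.9 in the LM1KO-labelled libraries (log2 difference -0.91 ± 0.15, adjusted p = 0.00014, limma-voom). Lats2 levels in LM9 were 103.2, 61.3 and 65.8 CPM, against 50.7, 56.8 and 54.4 (log2 difference -0.48 ± 0.15, adjusted p = 0.013, limma-voom), and without replicate 1 the log2 difference was -0.23 ± 0.05 (adjusted p = 0.00048, limma-voom). No group of either gene overlapped its counterpart, although Lats2 in LM9 replicates 2 and 3 was only 1.18-fold above the knockout-labelled mean. Its LM9 call was lost without scaling factors (-0.12, adjusted p = 0.58) and when only the LM9 groups were fitted (-0.48, adjusted p = 0.070). Lats2 shares 2955 bp of exon on the same strand with Gm49361, so reads there may be split between them, and with the counts of both summed the log2 differences were -0.88 and -0.46.

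The order of the members per length differed between parental and knockout-labelled tumourspheres. In LM1 the order of mean CPM per kb was Cyr61, Wwtr1, Tead2, Yap1, Tead1, Amotl2, Lats2, Ctgf, Tead4 and Tead3, where the neighbours Yap1 and Tead1, Tead1 and Amotl2, and Lats2 and Ctgf overlapped in their ranges. With all 3 libraries LM9 had the same order, and there Wwtr1 and Tead2, Yap1 and Tead1, Tead1 and Amotl2, Lats2 and Ctgf, and Ctgf and Tead4 overlapped. That order rested on LM9 replicate 1, since without it Tead2 stood above Wwtr1, at 35.2 against 29.6 CPM per kb and with no overlap, and the other places stayed. In LM1KO-labelled libraries the order was Wwtr1, Cyr61, Yap1, Lats2, Ctgf, Amotl2, Tead1, Tead4, Tead2 and Tead3. Lats2 and Ctgf, Ctgf and Amotl2, and Tead2 and Tead3 overlapped there. LM9KO-labelled libraries had that order too, with overlap of Lats2 and Ctgf and of Amotl2 and Tead1. Cyr61 thus stood at place 1 in the parental and place 2 in the knockout-labelled libraries, at 21.2 CPM per kb in LM1KO-labelled libraries and 20.9 in LM9KO-labelled libraries, and Tead2 stood at place 9 there, with 0.758 and 0.879.

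An interaction term tested if LM1 and LM9 had unequal differences between knockout-labelled and parental libraries. With all 12 libraries 0 members passed by limma-voom, by edgeR or by DESeq2, with 1 (Wwtr1) at an unadjusted p under 0.05 by limma-voom, as were 24.7% of all genes. Over all genes limma-voom called 0%, edgeR 0.00550% and DESeq2 0.429%. The interaction estimates ran from -0.76 for Tead3 to 0.22 for Cyr61 on the log2 scale. Without LM9 replicate 1, 8 of the 10 members passed, against 57.2% of all genes. Of these, Cyr61 had the larger difference in LM9 (interaction 0.32 ± 0.06, adjusted p = 0.00011, limma-voom), and 6 others differed more in LM1, of which Tead3 had the largest estimate (-1.19 ± 0.16, adjusted p = 9.2e-06, limma-voom). For Ctgf the term (-1.11 ± 0.09, adjusted p = 2.2e-08, limma-voom) spans opposite directions, -0.86 in LM1 and 0.25 in LM9. Tead2 and Tead4 did not pass, at -0.07 ± 0.15 and 0.01 ± 0.09. These terms rest on only 2 LM9 libraries. An interaction equals the difference between the knockout-labelled pools minus the difference between the parental lines. No member differed between the pools, as given below, so these terms largely repeat the comparison of parental lines that follows.

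The parental lines were then compared with each other. With all libraries, 0 members differed between LM1 and LM9 by limma-voom or edgeR, 8 had an unadjusted p under 0.05 by limma-voom, as did 47.7% of all genes, and DESeq2 called 4, where it called 33.9% of all genes. Of all genes limma-voom called 0.00550%, which was 1 gene, Anpep, named here after its value was seen (log2 difference 2.38 ± 0.27, adjusted p = 0.040, limma-voom). Without LM9 replicate 1, 9 members differed, against 65.7% of all genes. Higher in LM1 were Tead3 (log2 difference 1.25 ± 0.10), Ctgf (1.18 ± 0.07), Lats2 (0.70 ± 0.05), Wwtr1 (0.66 ± 0.05), Yap1 (0.41 ± 0.04), Tead1 (0.39 ± 0.08) and Amotl2 (0.39 ± 0.05). Lower in LM1 were Cyr61 (-0.30 ± 0.03, adjusted p = 6.0e-07, limma-voom) and Tead2 (-0.15 ± 0.05, adjusted p = 0.015, limma-voom). Tead4 did not pass at 0.03 ± 0.07. These values rest on only 2 LM9 libraries.

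Between the knockout-labelled pools of the 2 lines 0 members differed by limma-voom, edgeR or DESeq2, and 0 had an unadjusted p under 0.05. The same comparison called 0% of all genes, with 178 at an unadjusted p under 0.05. The log2 differences, LM1KO-labelled minus LM9KO-labelled, ran from -0.21 for Tead2 to 0.07 for Ctgf, with SEs of 0.07 to 0.34. Every member's libraries overlapped between the pools.

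Beyond the members, the pathway's other genes were read from 5 lists. The Hippo kinase list holds the core kinases and their adaptors, and 11 of its 11 genes were tested. In LM1 5 were higher, 4 lower and 2 not called, and in LM9 7 were higher, 3 lower and 1 not called, with medians of 0.01 and 0.46. With all libraries 38.1% of all genes were lower and 43.1% higher in LM1, and 38.0% and 44.3% in LM9. Without LM9 replicate 1 the LM9 counts were 8 higher and 2 lower, with a median of 0.52, against 47.7% of all genes higher and 41.2% lower. The MOB adaptors of LATS were higher, Mob1b at 40.3 against 94.0 CPM in LM1 (log2 difference 1.22 ± 0.18, adjusted p = 5.8e-05, limma-voom) and Mob1a at 156.5 against 225.7. Taok2 and Taok3, kinases upstream of MST, were also higher in both lines (0.72 and 0.50 in LM1, 1.46 and 1.08 in LM9). Sav1, the scaffold of the MST kinases, was lower at 95.1 against 45.6 CPM in LM1 (-1.06 ± 0.06, adjusted p = 8.8e-09, limma-voom), as were Map4k4 (-0.66 in LM1, -0.74 in LM9) and Taok1 (-0.55 and -0.21). For Taok1 the LM9 value without replicate 1 was -0.14 (adjusted p = 0.061, limma-voom).

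Of 12 scaffold and adhesion genes 11 were tested, and 5 were higher, 3 lower and 3 not called in LM1, with 6, 3 and 2 in LM9. The shares over all genes were again 38.1% lower and 43.1% higher in LM1 and 38.0% and 44.3% in LM9. The medians were 0.26 and 0.61. Without LM9 replicate 1, which also enters the spread shared by both lines, 6 were higher and 5 lower in LM1 and 8 and 3 in LM9, with an LM9 median of 0.77, against 46.4% of all genes higher and 42.1% lower in LM1 and 47.7% and 41.2% in LM9. Wtip, an Ajuba-family LIM protein gene, had at most 1 count in any parental library and was at 20.5 CPM in LM1KO-labelled libraries, at least 200-fold higher against a limit of 3 counts per library, and at least 164-fold higher in LM9KO-labelled libraries. Amot, an angiomotin like Amotl2, was higher (0.68 in LM1, 1.29 in LM9), as were Limd1 (0.65 and 0.80) and Frmd6 (0.26 and 0.61). The angiomotin Amotl1 was lower, as Amotl2 was, at 512.8 against 197.7 CPM in LM1 (-1.37 ± 0.09, adjusted p = 5.3e-08, limma-voom). Lower in both lines were also Wwc1, which encodes KIBRA (-2.08 in LM1, -1.58 in LM9), and the atypical cadherin gene Fat1 (-1.16 and -0.76).

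The VGLL proteins compete with YAP for TEAD, and 2 of 4 Vgll genes were in the files. Vgll3 had 0 counts in all 6 parental libraries and was at 5.56 CPM in LM1KO-labelled libraries and 5.72 in LM9KO-labelled libraries, at least 54.4-fold and 50.4-fold higher against the limit of 3 counts per library. Vgll4 was lower, at 93.7 against 59.5 CPM in LM1 (-0.65 ± 0.06, adjusted p = 6.0e-07, limma-voom) and 94.0 against 59.7 in LM9 (-0.66 ± 0.06). Of the other CCN genes 3 of 4 were tested. Nov was higher, at 10.5 against 74.2 CPM in LM1 (2.81 ± 0.15, adjusted p = 7.1e-09, limma-voom), and Wisp2 was lower, at 423.4 against 58.6 CPM (-2.85 ± 0.16, adjusted p = 1.4e-08, limma-voom). Wisp1 was higher by 1.07 ± 0.43 in LM1 and 3.61 ± 0.66 in LM9, where its parental libraries ranged from 1.17 to 24.8 CPM and the value without replicate 1 was 5.04.

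A list of 18 further YAP-TEAD targets, of which 17 were tested, did not follow Cyr61 as a group. In LM1 9 were lower, 7 higher and 1 not called, and in LM9 9 were lower and 8 higher, with medians of -0.43 and -0.40. Beside these counts stand 38.1% lower and 43.1% higher over all genes in LM1, and 38.0% and 44.3% in LM9. Without LM9 replicate 1 the LM9 counts were also 9 and 8, against 41.2% of all genes lower and 47.7% higher, but the median was -0.20. Lower were Nt5e, an ecto-nucleotidase gene, at 252.3 against 7.34 CPM in LM1 (-5.10 ± 0.07), and Ankrd1, a muscle ankyrin-repeat gene much used as a YAP readout, at 66.2 against 4.39 CPM (-3.91 ± 0.23). F3, which encodes tissue factor, was at 39.8 against 2.63 CPM in LM1 (-3.91 ± 0.11), and the kinase gene Nuak2 at 17.8 against 2.71 CPM (-2.71 ± 0.10). Higher were Ccdc80, a matrix protein gene, at 0.51 against 223.0 CPM in LM1 (8.79 ± 0.21), and Tgfb2, the growth factor gene, at 22.6 against 176.1 CPM (2.96 ± 0.09). The forkhead gene Foxf2 had at most 1 count in any parental library and was at 30.7 CPM in LM1KO-labelled libraries, at least 300-fold higher, and at 29.2 CPM in LM9KO-labelled libraries, at least 258-fold higher. Fjx1 had 0 parental counts and was at least 105-fold higher in LM1KO-labelled libraries and 90.7-fold in LM9KO-labelled libraries. All 8 were named among genes called in the same direction in both lines, so their agreement in LM9 follows from that rule. Their LM9 direction and call also held without replicate 1.

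**Figure D4:**
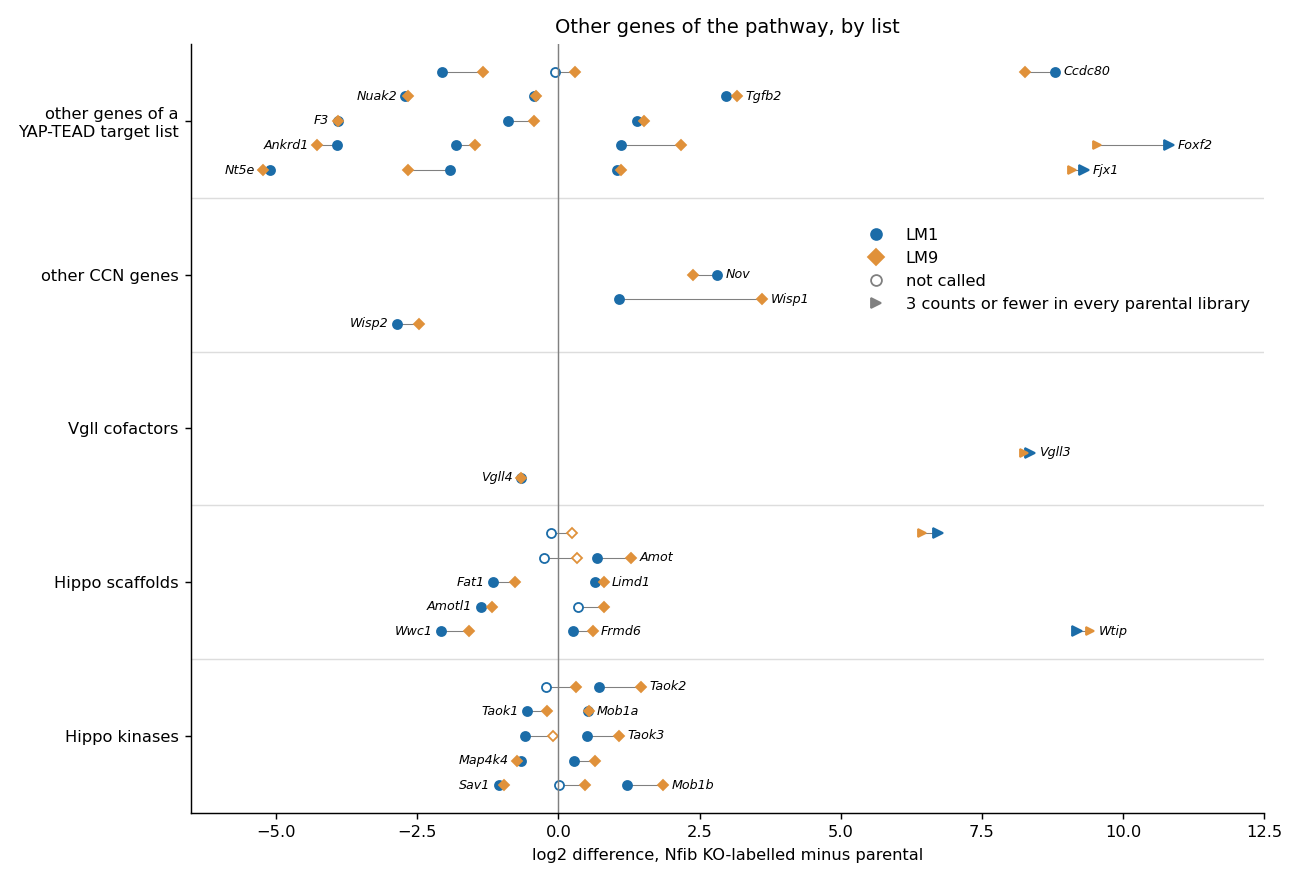
Log2 difference (knockout-labelled minus parental, horizontal axis) of each tested gene of the 5 other lists, with LM1 as blue and LM9 as orange points joined by a line, filled where called by limma-voom. Triangles are genes with 3 counts or fewer in every parental library, whose fitted value depends on the offset and is no bound. Each list has genes on both sides of 0.

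The genes whose pattern over the 12 libraries was most like that of a member were found by the root mean square difference of centred log2 CPM, among 14633 genes with a mean of at least 1 CPM. For Yap1 they were Dlg1 (0.022), Kif3c (0.039) and Myo6 (0.043). Dlg1, which encodes a polarity scaffold, averaged 288.6 CPM in LM1, 145.1 in LM1KO-labelled libraries, 238.1 in LM9 and 146.6 in LM9KO-labelled libraries. For Cyr61 they were Itm2c (0.040), Pltp (0.047) and Tkt (0.051), and for Ctgf Rnf135 (0.074), Irgq (0.085) and Spg20 (0.086). None of these 9 genes is on the pathway lists used here.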

How the data were processed

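mRNA of 12 tumoursphere libraries was sequenced by the authors, who prepared stranded poly-A TruSeq libraries read single-end on an Illumina NextSeq. Per the labels and the study's methods, reads were aligned with STAR to mm10 and counted with qCount as the reads whose 5' end fell within the union of a gene's exons. Versions, annotation release, multi-mapping rules and the counting strand are not given in the sources used here. The deposited files hold whole-number counts per gene, 1 file per library, without normalisation. Every gene of the files had a third-highest count of at least 8. Of 18278 identifiers 18268 matched GENCODE M21, which gave names, loci and exon lengths.

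Counts were filtered with filterByExpr (minimum count 10, minimum total 15), scaled by TMM and fitted with limma-voom 3.58.1 (edgeR 4.0.16, R 4.3.3) over all 12 libraries with 1 coefficient per group. Contrasts were each knockout-labelled group against its parental line, their interaction, and the lines against each other. P-values were adjusted by Benjamini-Hochberg over all genes, with calls at 0.05. The scripts were tested on simulated data. Levels per length divide CPM by the kb of exon union. The members and lists were chosen with earlier results of these data known. All members were named in every contrast. In each other list, up to 4 genes higher and 4 lower by the largest LM1 difference were named among genes called with the same sign in both lines at a mean of at least 1 CPM. The nearest 3 genes were named for Yap1, Cyr61 and Ctgf.

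Replicate numbers did not pair libraries: deviations from the group means of same-numbered libraries correlated at -0.05 to 0.03. Alternatives were edgeR's quasi-likelihood test, DESeq2 1.42.0, median-ratio factors, no scaling factors, no filter, a mean of at least 5 CPM, a replicate block, sample quality weights, only the groups compared, a log2 difference above 1 and each library left out. Summing the counts of overlapping genes was added after seeing the data. Intervals of counting error were not used.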

Additional observations from a re-analysis of the deposited data

How the results depend on the processing

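The alternatives moved the members' LM1 and LM9 values little in most cases. For the 10 members in LM1, 222 of 230 recomputed values kept direction and side of the threshold, and in LM9 212 of 230 did. Requiring an absolute log2 difference above 1 left 5 members in LM1 and 5 in LM9, and 25 and 26 genes of the 5 other lists, against 55.0% and 57.5% of all genes, which follows from the rule itself. Those percentages count both directions. All the members left were lower, as were 4579 genes in LM1 and 4751 in LM9 of the 18176 tested. With the replicate block, 9 members were called in LM1 and 8 in LM9, as without it, against 14599 and 14839 of 18176 genes. The replicate numbers did not pair the libraries (correlations of -0.05 to 0.03). The block gave 0 genes between LM1 and LM9 over all genes, where the count without it was 1, and it changed no member's call. Leaving out 1 library each gave 0 to 8 members and 0 to 10444 genes in the interaction, and 0 to 9 members and 0 to 11995 genes between LM1 and LM9, the highest being without LM9 replicate 1. Sample quality weights gave 8 members and 10557 genes in the interaction and 9 members and 11596 genes between LM1 and LM9. Between LM1 and LM9 over all genes and over the members, DESeq2 called 6159 and 4, no scaling factors 5226 and 4, a mean of at least 5 CPM 4670 and 4, and the fit of only the groups compared 0 genes. In the interaction over all genes edgeR called 1, DESeq2 78 and no scaling factors 1, and the fit of only the groups compared called 6 genes between the knockout-labelled pools. The causes of these changes were not tested.

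In the 2 within-line comparisons, the interaction and LM1 against LM9, reversed signs occurred for Ctgf, Tead4 and Tead2. Ctgf in LM9 was 0.15 without scaling factors and 0.23 with quality weights, and ran from -0.45 to 0.25 over left-out libraries. Tead4 stayed near 0 with either sign on the TMM scale. In LM1 it was -0.0038 with quality weights and -0.0091 to 0.034 over left-out libraries. In LM9 it was 0.35 without scaling factors, 0.00093 without a filter, 0.015 with quality weights and -0.050 to 0.043 over left-out libraries. Its interaction was -0.12 without scaling factors, -0.019 with quality weights and -0.031 to 0.065 over left-out libraries. Between LM1 and LM9 it was -0.0031 with DESeq2, -0.00077 with median-ratio factors and -0.023 to 0.071 over left-out libraries, and Tead2 there was 0.041 without scaling factors. Between the knockout-labelled pools, where no member was called under any alternative, 15 of 230 values changed sign. Yap1 there was 0.0017 with DESeq2, 0.0018 with median-ratio factors, 0.0015 without scaling factors and 0.0033 at a mean of at least 5 CPM, and Tead3 was -0.0031 with quality weights. Over left-out libraries Yap1 ran from -0.011 to 0.0078, Wwtr1 from -0.056 to 0.0028, Tead1 from -0.050 to 0.012, Tead3 from -0.048 to 0.16, Cyr61 from -0.0086 to 0.054 and Lats2 from -0.015 to 0.064. The lowest member counts, 130 to 189, were those of Tead2 and Tead3 in the knockout-labelled libraries. There the SD of Tead2 was 8.58% and 8.84% of the mean CPM against counting errors of 8.45% and 7.76%, and that of Tead3 11.9% and 14.6% against 7.68% and 7.75%.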
